A study of Rattus norvegicus with 6 samples.

Results

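The enzymes and coactivators of hepatic glucose production and glycogen storage described here are 10 genes, read on liver arrays of spontaneously diabetic rats by 13 of 31042 probe sets. They comprise the gluconeogenic enzymes Pc, Pck1, Pck2, Fbp1 and the transporter Slc37a4, the coactivators Ppargc1a and Crtc2, and the glycogen genes Gys2, Gbe1 and Pygl. A probe set counted when the annotation of the array gave it 1 gene symbol and that symbol was one of these 10, and all 10 genes were found. Ppargc1a had 3 probe sets, Pck2 had 2 and each of the other genes had 1. The catalytic subunit of glucose-6-phosphatase was not counted, because its probe sets carried several symbols. The study lists its gene, G6pc, among those altered in both of its comparisons, and no value for it is given here.

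The arrays held total liver RNA of BioBreeding rats in 3 groups of 2 arrays each. BBDR.lyp/lyp rats carry 2 copies of lyp, a frameshift in Gimap5 that depletes T cells and is followed by autoimmune diabetes, and they were sampled shortly after hyperglycemia (post-hyperglycemia, 55 days of age within 5 days) or before it (pre-hyperglycemia, 50 days within 5 days). BBDR.+/+ rats (55 days within 5 days) carry the normal allele on the same congenic background and resist spontaneous diabetes, although diabetes can be induced in them. No treatment was compared. For genes that answer to feeding, one point of the design matters in particular: the sample labels describe a 12 h fast before the liver was taken, whereas the methods of the study describe free access to food. The sources also name different amplification kits. The labels number the replicates without linking an array to a rat, so that p-values measure the spread between these samples.

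Gluconeogenesis builds glucose from lactate, alanine and glycerol and runs mainly in hepatocytes. Glucagon raises it through cyclic AMP, the kinase PKA and the transcription factor CREB, which acts with its coactivator CRTC2. The coactivator PGC-1alpha also takes part in switching on Pck1. Insulin represses gluconeogenesis, in part through FOXO1. Glycogen synthase and the branching enzyme store glucose, and glycogen phosphorylase releases it, and these enzymes as well as fructose bisphosphatase are controlled to a large extent by phosphorylation or allosteric ligands, which an RNA measurement does not read.

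Promoter windows of Pck1, Ppargc1a and Crtc2 are shown because each holds a match to the cyclic AMP response element or its half-site, the sequence through which CREB and Crtc2 act. The sequences are those of RefSeq on the GRCr8 assembly, plus strand, from promoters of 250 bases before to 50 bases after each start, which were found for 9 of the 10 genes. Capitals mark the half-site TGACG, which in Pck1 lies on the reverse strand and so appears as its reverse complement, the full element in Ppargc1a, and the forkhead core GTAAACA in Crtc2.
Pck1, chr3:182348422-182348546: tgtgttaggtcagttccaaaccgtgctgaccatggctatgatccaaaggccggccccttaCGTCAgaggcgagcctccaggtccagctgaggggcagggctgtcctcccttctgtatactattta
Ppargc1a, chr14:63634067-63634194: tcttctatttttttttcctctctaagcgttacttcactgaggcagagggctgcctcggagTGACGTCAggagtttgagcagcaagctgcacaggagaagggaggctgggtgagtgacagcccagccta
Crtc2, chr2:178007119-178007243: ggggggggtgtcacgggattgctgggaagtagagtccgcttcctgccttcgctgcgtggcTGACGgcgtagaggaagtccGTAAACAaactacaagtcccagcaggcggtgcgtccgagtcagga
The half-site lay at -90 to -86 from the start in the Pck1 promoter and at -95 to -91 from that in the Crtc2 promoter. The full element lay at -181 to -174 in the Ppargc1a promoter. For Crtc2 and Ppargc1a that start lies inside the gene and is not its first annotated base. The 9 genes had 10 promoters. On either strand, TGACG was present in 5 of 10, those of 4 genes (Pck1, Slc37a4, Ppargc1a and Crtc2), against 21.2% of all 33469 promoters searched. The longer TGACGTCA, which contains it, was present in 1 of 10 against 1.83%. GTAAACA was found in 1 of 10 (Crtc2) against 3.78%, and the E-box CACGTG in 0 of 10 against 6.42%. A match describes letters in this window and shows no binding.

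None of the 13 probe sets passed the test in any of the 3 comparisons. With limma fitted to all probe sets and a Benjamini-Hochberg adjusted p under 0.05, 0 of 13 were called in post-hyperglycemia livers against BBDR.+/+, where 1.89% of all probe sets were called higher and 3.26% lower. Against pre-hyperglycemia livers 0 of 13 were called, beside 0.718% of all probe sets higher and 1.46% lower, and 0 of 13 were called in pre-hyperglycemia livers against BBDR.+/+, beside 0.464% higher and 0.254% lower. For 13 probe sets, these shares correspond to fewer than 1 call in each comparison. At an unadjusted p under 0.05, limma passed 1 member probe set in the first comparison, where 19.7% of all probe sets passed, 2 in the second (14.9% of all) and 0 in the third (11.4% of all). The other test named in the methods, rank product, called 0 in each. The methods' t-test passed 1, 0 and 1 at an unadjusted p under 0.05 and 0 after Benjamini-Hochberg adjustment.

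**Figure D1:**
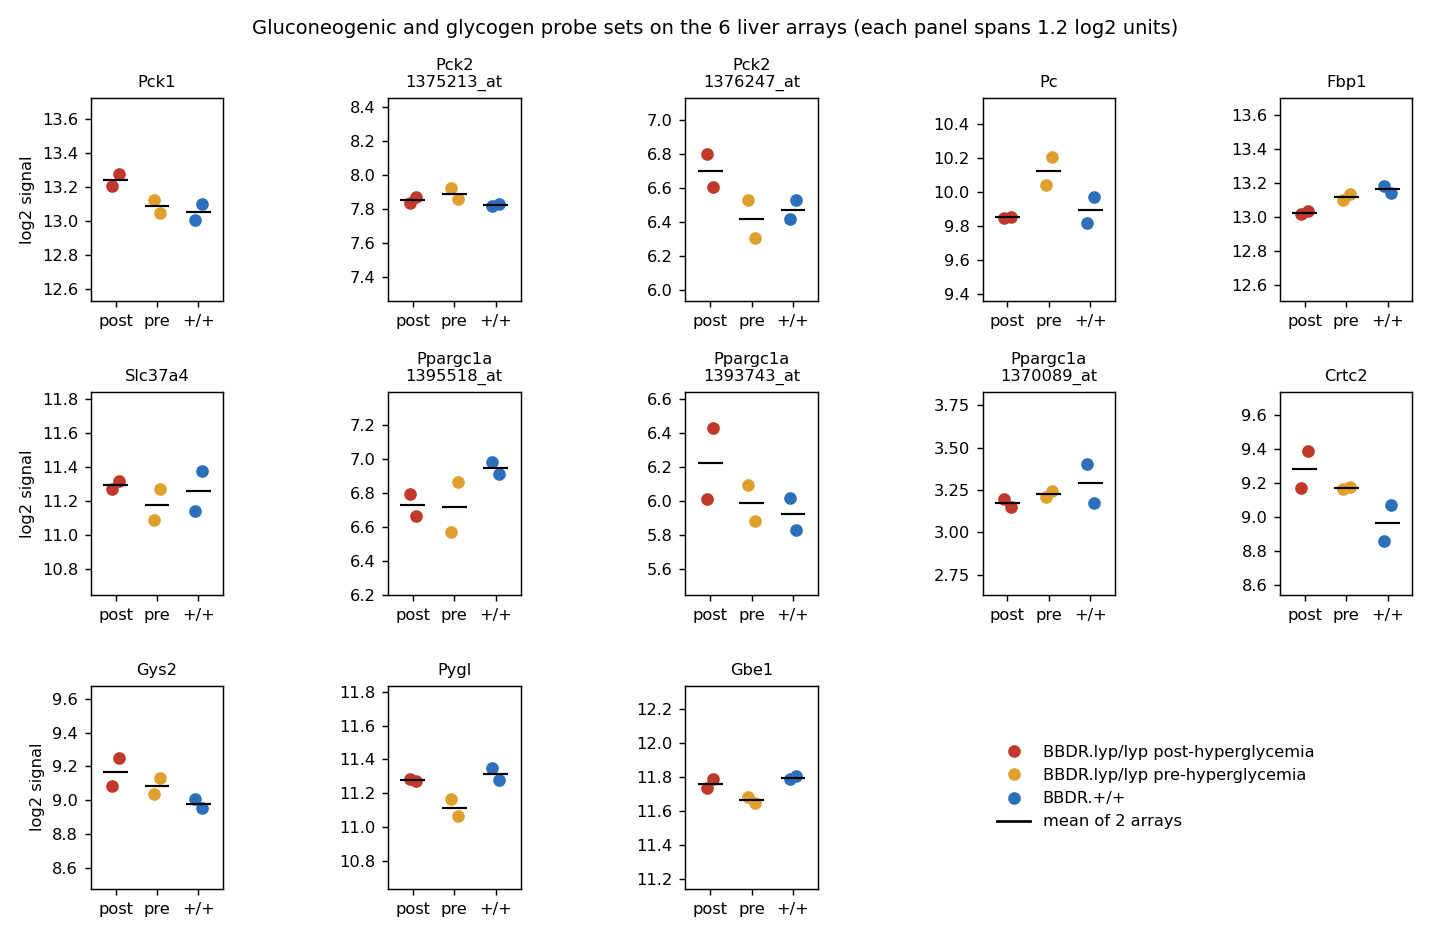
Signal (log2, vertical axis) of each of the 13 probe sets on the 6 arrays, with post-hyperglycemia, pre-hyperglycemia and BBDR.+/+ from left to right in every panel. Points are arrays, lines are means of 2 arrays, and all panels span the same log2 range, in which the group means of Crtc2 spread most (by 0.32) and those of Pck2 1375213_at least (by 0.07).

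Pc encodes pyruvate carboxylase, which makes oxaloacetate from pyruvate in mitochondria and so opens the pathway. Its signal (log2) was 9.84 and 9.85 in post-hyperglycemia livers, 10.04 and 10.21 in pre-hyperglycemia livers, and 9.82 and 9.97 in BBDR.+/+ livers. Both pre-hyperglycemia arrays were above the other 4, and the post-hyperglycemia arrays lay inside the range of BBDR.+/+. Signs follow the sample labels, the group named first minus the second, and the study itself lists fold changes of genes such as Gpd1 with the opposite sign, so that the directions given here rest on the labels. The log2 fold change was -0.27 in post-hyperglycemia against pre-hyperglycemia (SE 0.11, 95% interval -0.52 to -0.03, adjusted p = 0.267 from limma), and it passed at an unadjusted p under 0.05 only. It was -0.04 against BBDR.+/+ (adjusted p = 0.878), and 0.23 in pre-hyperglycemia against BBDR.+/+ (-0.01 to 0.47, adjusted p = 0.474).

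Pck1, the cytosolic phosphoenolpyruvate carboxykinase and the transcript most often taken as a readout of gluconeogenic transcription, had a signal (log2) of 13.20 and 13.28 in post-hyperglycemia livers, 13.13 and 13.05 in pre-hyperglycemia livers, and 13.00 and 13.10 in BBDR.+/+ livers. Both post-hyperglycemia arrays were above the other 4, by little, and the pre-hyperglycemia and BBDR.+/+ arrays overlapped. The difference from BBDR.+/+ was 0.19 on the log2 scale (SE 0.10, 95% interval -0.04 to 0.42), a 1.14-fold difference (limma, adjusted p = 0.350). The difference from pre-hyperglycemia was 0.15 (-0.07 to 0.38, adjusted p = 0.545), and between pre-hyperglycemia and BBDR.+/+ it was 0.04 (-0.19 to 0.26, adjusted p = 0.938). The intervals therefore reach no further up than a log2 difference of 0.42. The highest signal on any array was 14.62, above that of Pck1, but whether differences are compressed at signals as bright as that of Pck1 was not tested.

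The mitochondrial carboxykinase Pck2 was read by 2 probe sets, which did not run in parallel. 1375213_at stood at 7.83 and 7.87 (log2) in post-hyperglycemia livers, 7.92 and 7.86 in pre-hyperglycemia livers, and 7.81 and 7.83 in BBDR.+/+ livers. For 1376247_at the values were 6.80 and 6.60 in post-hyperglycemia livers, 6.53 and 6.30 in pre-hyperglycemia livers, and 6.42 and 6.53 in BBDR.+/+ livers. The first hardly moved between groups, and in the second both post-hyperglycemia arrays were above the other 4. Against pre-hyperglycemia, the log2 fold change was -0.04 for 1375213_at (95% interval -0.26 to 0.18) and 0.29 for 1376247_at (0.02 to 0.55, adjusted p = 0.294 from limma), of which the second passed before adjustment only. Against BBDR.+/+ it was 0.03 and 0.23 (adjusted p = 0.905 and 0.331).

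Fbp1, the fructose bisphosphatase of liver, stood at 13.02 and 13.04 (log2) in post-hyperglycemia livers, 13.10 and 13.14 in pre-hyperglycemia livers, and 13.19 and 13.14 in BBDR.+/+ livers. The groups did not overlap, with post-hyperglycemia at the low end and BBDR.+/+ at the high end, the opposite order to Pck1. The log2 fold change of post-hyperglycemia was -0.14 against BBDR.+/+ (SE 0.10, 95% interval -0.36 to 0.08, limma, adjusted p = 0.504) and -0.09 against pre-hyperglycemia (adjusted p = 0.744), and that of pre-hyperglycemia against BBDR.+/+ was -0.05 (adjusted p = 0.914). The margin between pre-hyperglycemia and BBDR.+/+ was below the second decimal. Its replicates were the closest of the 13, with an SD of 0.0244 pooled over the groups, against a median of 0.109 over all probe sets. The methods' test on 2 arrays a group, which takes the spread from each probe set alone, passed it against BBDR.+/+ before adjustment only.

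Slc37a4 carries glucose-6-phosphate into the endoplasmic reticulum for the last step of glucose production. Its signal (log2) was 11.27 and 11.32 in post-hyperglycemia livers, 11.09 and 11.27 in pre-hyperglycemia livers, and 11.14 and 11.37 in BBDR.+/+ livers. The BBDR.+/+ arrays enclosed both post-hyperglycemia arrays, and the log2 fold change was 0.04 (95% interval -0.22 to 0.30, adjusted p = 0.908 from limma). Post-hyperglycemia against pre-hyperglycemia gave 0.12 (-0.14 to 0.38), and pre-hyperglycemia against BBDR.+/+ gave -0.08 (-0.34 to 0.18).

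Crtc2, the coactivator that glucagon signalling sends to CREB in the nucleus, had the largest difference from BBDR.+/+ of the 13 probe sets. It stood at 9.17 and 9.39 (log2) in post-hyperglycemia livers, 9.17 and 9.18 in pre-hyperglycemia livers, and 8.86 and 9.07 in BBDR.+/+ livers. All 4 arrays of BBDR.lyp/lyp rats were above both BBDR.+/+ arrays, and the post-hyperglycemia and pre-hyperglycemia arrays overlapped. The log2 fold change was 0.32 in post-hyperglycemia against BBDR.+/+ (SE 0.12, 95% interval 0.06 to 0.58, adjusted p = 0.161 in the limma fit), or 1.25-fold, and it passed before adjustment only. It was 0.11 against pre-hyperglycemia (-0.15 to 0.37, adjusted p = 0.741) and 0.21 in pre-hyperglycemia against BBDR.+/+ (-0.05 to 0.47, adjusted p = 0.558). The activity of Crtc2 is set by phosphorylation and by where in the cell it lies, neither of which was measured.

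Ppargc1a encodes PGC-1alpha, a coactivator induced by fasting. Its 3 probe sets did not go the same way against BBDR.+/+. 1395518_at stood at 6.79 and 6.67 (log2) in post-hyperglycemia livers, 6.57 and 6.86 in pre-hyperglycemia livers, and 6.98 and 6.91 in BBDR.+/+ livers. 1393743_at stood at 6.01 and 6.43 in post-hyperglycemia livers, 6.10 and 5.88 in pre-hyperglycemia livers, and 6.02 and 5.83 in BBDR.+/+ livers. In the first of them both BBDR.+/+ arrays were the highest, and in the second 1 post-hyperglycemia array stood above the other 5. The third, 1370089_at, was near the bottom of the signal range, above 5.56% of all probe sets, at 3.20 and 3.15 in post-hyperglycemia livers, 3.21 and 3.24 in pre-hyperglycemia livers, and 3.40 and 3.17 in BBDR.+/+ livers. The log2 fold changes against BBDR.+/+ were -0.22 (95% interval -0.49 to 0.05), 0.30 (-0.03 to 0.62) and -0.11 (-0.36 to 0.13) in that order, with adjusted p of 0.365, 0.300 and 0.637 from limma. Against pre-hyperglycemia they were 0.01, 0.23 and -0.05, and no direction for the gene can be read from probe sets that differ in sign.

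The glycogen genes showed differences of the same small size. Gys2, the liver isoform of glycogen synthase, stood at 9.08 and 9.25 (log2) in post-hyperglycemia livers, 9.04 and 9.13 in pre-hyperglycemia livers, and 9.01 and 8.96 in BBDR.+/+ livers. Both post-hyperglycemia arrays were above both BBDR.+/+ arrays, with a log2 fold change of 0.19 (SE 0.11, 95% interval -0.05 to 0.42, adjusted p = 0.387 from limma). The post-hyperglycemia and pre-hyperglycemia arrays overlapped (0.08, -0.16 to 0.32). Gbe1, the branching enzyme, stood at 11.73 and 11.79 in post-hyperglycemia livers, 11.68 and 11.65 in pre-hyperglycemia livers, and 11.79 and 11.81 in BBDR.+/+ livers. Its pre-hyperglycemia arrays were the lowest 2 of the 6, with a log2 fold change of -0.13 against BBDR.+/+ (-0.35 to 0.08, adjusted p = 0.677).

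Pygl, the liver glycogen phosphorylase that releases glucose units from glycogen, stood at 11.28 and 11.27 (log2) in post-hyperglycemia livers, 11.16 and 11.07 in pre-hyperglycemia livers, and 11.35 and 11.28 in BBDR.+/+ livers. As with Gbe1, both pre-hyperglycemia arrays were the lowest of the 6, while the other groups lay close together. Pre-hyperglycemia against BBDR.+/+ gave a log2 fold change of -0.20 (SE 0.10, 95% interval -0.42 to 0.03, adjusted p = 0.507 from limma), post-hyperglycemia against pre-hyperglycemia gave 0.16 (-0.06 to 0.39, adjusted p = 0.511), and post-hyperglycemia against BBDR.+/+ gave -0.03 (-0.26 to 0.19, adjusted p = 0.896).

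In the comparison of post-hyperglycemia with BBDR.+/+ livers, genotype and hyperglycemia differ together and cannot be told apart. Of the 13 probe sets 7 had a positive and 6 a negative difference, running between -0.22 and 0.32 on the log2 scale. Their median was 0.03, beside 0.01 over all probe sets, and their median absolute difference was 0.138, beside 0.124 over all. The 95% intervals of all 13 lay within a 2-fold difference, and those of 12 within 1.5-fold, with Ppargc1a 1393743_at as the exception. In 8 of 13 the 2 groups did not overlap, where 48.8% of all probe sets did not.

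Pre-hyperglycemia livers share the genotype of post-hyperglycemia livers but not the age (50 and 55 days). In this comparison age and hyperglycemia differ together and cannot be told apart. Against pre-hyperglycemia livers 9 probe sets had a positive and 4 a negative difference, between -0.27 (Pc) and 0.29 (Pck2 1376247_at). The median was 0.10, beside 0.01 over all probe sets, and the median absolute difference was 0.111, beside 0.109. All 13 intervals lay within 1.5-fold, the widest bounds being -0.52 and 0.56. The groups did not overlap in 8 of 13 (44.5% of all probe sets).

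In pre-hyperglycemia livers against BBDR.+/+, a comparison of genotypes before diabetes in which the rats also differ in age, 6 differences were positive and 7 negative, between -0.23 and 0.23. The median was -0.05, beside -0.00 over all probe sets, and the median absolute difference was 0.0801, beside 0.101. All 13 intervals again lay within 1.5-fold, and the groups did not overlap in 8 of 13 (42.6% of all probe sets). The comparisons share arrays, so their values are not independent of each other.

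**Figure D2:**
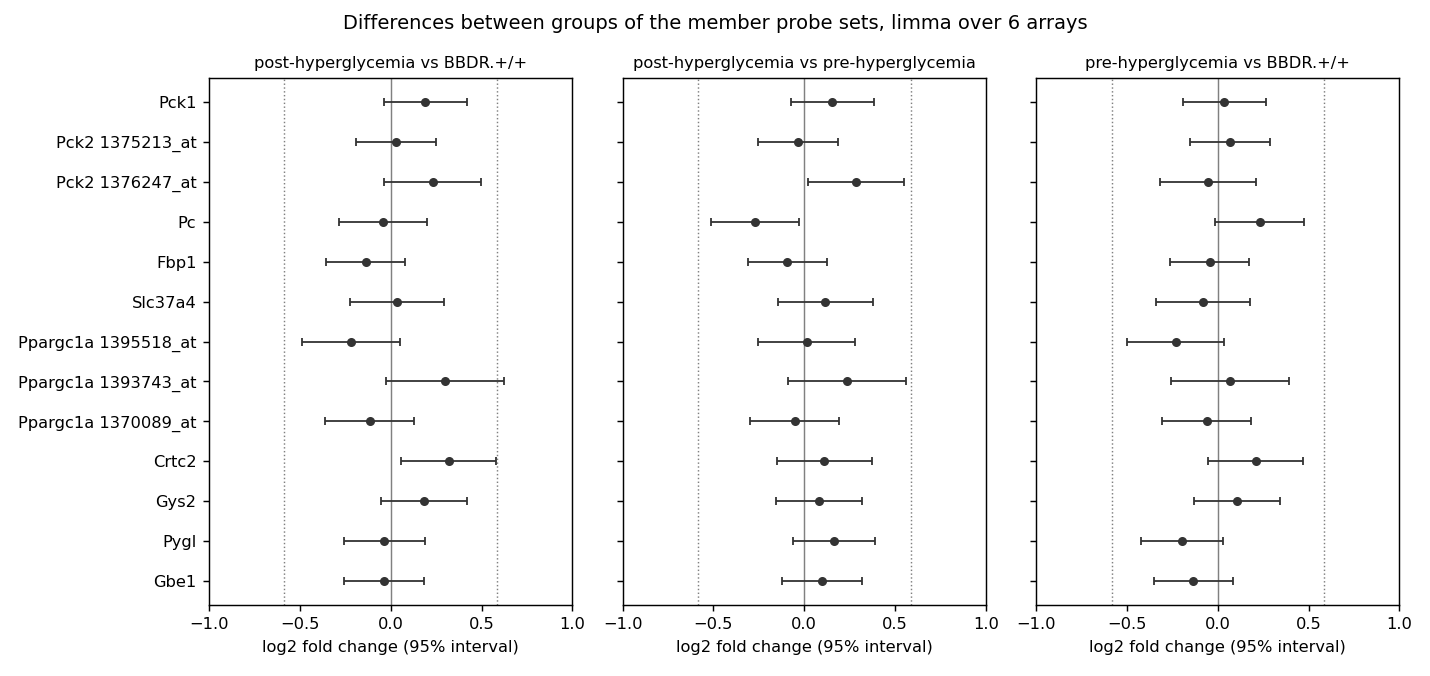
Log2 fold change of the 13 probe sets (horizontal axis, points, with 95% intervals from limma over 6 arrays as bars) in the 3 comparisons, the group named first minus the group named second. Dotted lines mark a 1.5-fold difference either way, which only the interval of Ppargc1a 1393743_at against BBDR.+/+ crosses, at 0.62.

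Within groups the 13 probe sets were as tight as the rest of the array. The SD over replicates pooled over the groups ran between 0.0244 and 0.207, with a median of 0.0933 against 0.109 over all probe sets, and the median spread of the 3 group means was 0.190 against 0.183 over all. Over the 6 arrays, Pck1 ran opposite to Fbp1 (Pearson r = -0.93) and with Crtc2 (r = 0.85), and Pygl ran with Gbe1 (r = 0.89) and opposite to Pc (r = -0.95). The transcripts outside the members whose pattern was most like that of Pck1 were Fbrsl1 (r = 0.997), Phf12 (r = 0.994) and Tbkbp1 (r = 0.992). These correlations describe 6 arrays that share their normalization and fall into 3 groups, and with 31042 probe sets some values this high arise from the search itself.

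The wider pathway was described with lists of neighbouring genes, in which the brightest probe set, that with the highest mean signal, stood for each gene. Of 21 other genes of gluconeogenesis on the array, among them the aminotransferases, malate and lactate dehydrogenases and the reversible glycolytic enzymes, 0 passed in post-hyperglycemia livers against BBDR.+/+ with a median log2 fold change of -0.01, and 4 of 21 had an unadjusted p under 0.05 by limma, near the 19.7% of all probe sets. Against pre-hyperglycemia livers 1 rose and 0 fell. Of 22 other glycogen genes, among them the phosphorylase kinase and phosphatase subunits, 0 passed in each of the 3 comparisons, with medians of 0.01, 0.01 and 0.00 and with 3, 3 and 2 genes at an unadjusted p under 0.05, in each comparison a share below that of all probe sets (19.7%, 14.9% and 11.4%). Of 21 regulators of gluconeogenic transcription, 1 fell in post-hyperglycemia livers against BBDR.+/+, 1 fell against pre-hyperglycemia, and 1 was higher in pre-hyperglycemia against BBDR.+/+. Of 5 enzymes and regulators that set glycolysis against gluconeogenesis, 0 passed against BBDR.+/+ (2 at an unadjusted p under 0.05) and 1 rose against pre-hyperglycemia. Pathway genes that did not pass and had the smallest p in their lists were Eno1, an enolase, with -0.43 against BBDR.+/+ (adjusted p = 0.052 from limma), Pygb, the brain glycogen phosphorylase, with 0.41 (0.053), and Stbd1, a glycogen-binding protein, with 0.42 against pre-hyperglycemia (0.069).

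Pfkfb1 and Gpt2 had their lowest values before hyperglycemia. Pfkfb1, the liver enzyme that makes and degrades the fructose bisphosphate which speeds glycolysis and restrains gluconeogenesis, stood at 9.96 and 10.01 (log2) in post-hyperglycemia livers, 9.15 and 9.10 in pre-hyperglycemia livers, and 9.84 and 9.64 in BBDR.+/+ livers. It rose in post-hyperglycemia livers against pre-hyperglycemia by 0.86 (SE 0.11, adjusted p = 0.00442 from limma), a call that held without any 1 of the 6 arrays, and it was lower in pre-hyperglycemia livers than in BBDR.+/+ (-0.61, adjusted p = 0.0348), a call lost without any 1 of the 4 arrays compared (-0.71 to -0.51). Gpt2, the mitochondrial alanine aminotransferase, stood at 9.85 and 9.75 in post-hyperglycemia livers, 9.14 and 9.13 in pre-hyperglycemia livers, and 9.68 and 9.77 in BBDR.+/+ livers. Its difference was 0.66 between post-hyperglycemia and pre-hyperglycemia (adjusted p = 0.0101), lost without post-hyperglycemia replicate 1 (0.62) or pre-hyperglycemia replicate 2 (0.66). Between pre-hyperglycemia and BBDR.+/+ it was -0.59 (adjusted p = 0.0315), lost without any 1 of the 4 arrays (-0.63 to -0.55). A dimmer Gpt2 probe set differed by 0.01 and -0.28 in these comparisons and was not called. The other genes of the list that holds Pfkfb1 were not called by limma against pre-hyperglycemia. Their brightest probe sets gave 0.19 (Pklr), 0.35 (Pfkl), 0.12 (Pfkfb2) and 0.12 (the glucokinase regulatory protein Gckr). Dimmer probe sets gave 0.28 for Pklr and 0.39, -0.09 and -0.07 for Pfkfb2. In pre-hyperglycemia livers against BBDR.+/+, Pklr gave -0.40 (adjusted p = 0.249 from limma). Its dimmer probe set gave -0.67 (adjusted p = 0.148 from limma), which rank product called lower. The brightest probe sets of Pfkl (0.11), Pfkfb2 (-0.13) and Gckr (-0.17) were not called there.

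Nr0b2, the small heterodimer partner, a nuclear receptor that represses bile acid synthesis and gluconeogenic transcription, had its highest values before hyperglycemia. It stood at 8.83 and 9.05 (log2) in post-hyperglycemia livers, 9.46 and 9.62 in pre-hyperglycemia livers, and 8.78 and 8.89 in BBDR.+/+ livers. It fell by 0.60 in post-hyperglycemia livers against pre-hyperglycemia (adjusted p = 0.0282 from limma) and was higher in pre-hyperglycemia livers than in BBDR.+/+ (0.71, adjusted p = 0.0267). The first call was lost without post-hyperglycemia replicate 1 (-0.49), pre-hyperglycemia replicate 2 (-0.52) or either BBDR.+/+ array (-0.60), and the second without any 1 of its 4 arrays (0.63 to 0.79). Creb1, which encodes CREB itself, stood at 5.12 and 5.10 in post-hyperglycemia livers, 5.39 and 5.64 in pre-hyperglycemia livers, and 5.67 and 5.63 in BBDR.+/+ livers by its brightest probe set. That probe set fell by 0.55 against BBDR.+/+ (adjusted p = 0.0199, lost without any 1 of the 4 arrays compared, -0.57 to -0.53), while 3 dimmer Creb1 probe sets differed by -0.07, 0.12 and 0.07 and were not called. Those at 0.12 and 0.07 were near the bottom of the signal range, above 3.08% and 0.667% of all probe sets, where a fall could hardly show. The called probe set was above 41.3%.

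**Figure D3:**
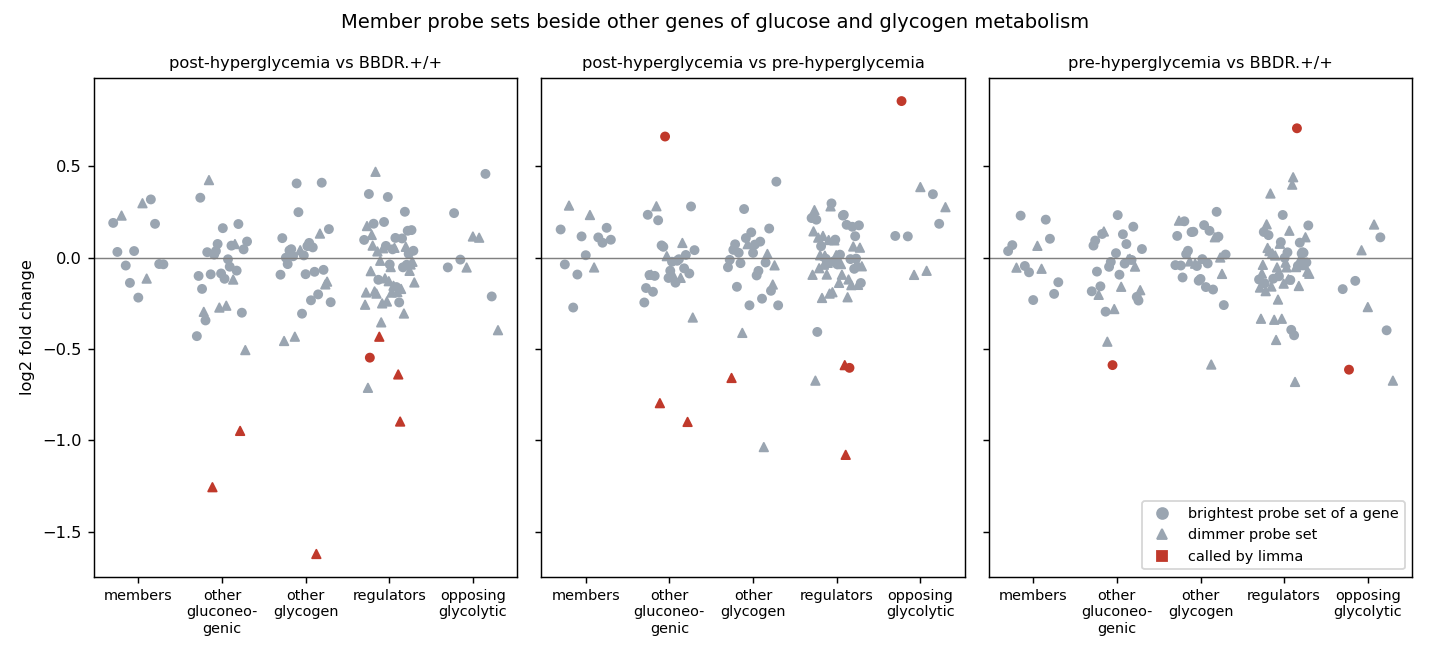
Log2 fold change (vertical axis) of each probe set of the 10 genes (members) and of 4 lists of neighbouring genes in the 3 comparisons, the group named first minus the group named second. Circles are the brightest probe set of a gene, triangles its dimmer ones, and red marks an adjusted p under 0.05 by limma, which no member probe set has.

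In the comparisons with post-hyperglycemia livers, dimmer probe sets of genes with several gave more calls than the brightest, all of them lower. In the 4 lists, which leave out the 10 genes themselves, 32 genes had several probe sets. In post-hyperglycemia livers against BBDR.+/+, 0 of the 32 brightest were called higher and 1 lower, while 0 of 53 dimmer ones were called higher and 6 lower, with medians of 0.03 and -0.15. Against pre-hyperglycemia the brightest gave 1 higher and 0 lower and the dimmer ones 0 and 5. Lower calls also outnumbered higher ones over all probe sets, with 3.26% lower and 1.89% higher against BBDR.+/+. The shares against pre-hyperglycemia were 1.46% lower and 0.718% higher. In pre-hyperglycemia livers against BBDR.+/+ the order was the other way, with 0 of the 53 dimmer probe sets called and 1 of the 32 brightest called lower. Over all probe sets 0.464% were called higher there and 0.254% lower. No test compared brightest with dimmer probe sets. Among the 3 dimmer probe sets of the member genes themselves (Pck2 1376247_at, Ppargc1a 1393743_at and 1370089_at), 2 had a positive difference from BBDR.+/+ (0.23 and 0.30) and 1 a negative one (-0.11).

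The genes behind these calls fell on a dimmer probe set, while their brightest probe set was not called. Ppp1r3b, which targets a phosphatase to glycogen in liver, differed from BBDR.+/+ by -1.62 on its dimmer probe set (adjusted p = 0.00514 from limma, held without any 1 array, -2.11 to -1.13) and by -0.08 on the brightest probe set. For Gpd1, the cytosolic glycerol phosphate dehydrogenase, the values were -1.26 (0.00337) and -0.09. The study lists Gpd1 with the opposite sign, so its direction here rests on the sample labels. For Slc25a13, the aspartate and glutamate carrier of mitochondria, the values were -0.95 (0.00417) and 0.18. Klf15, a fasting-induced activator of amino acid breakdown, gave -0.90 (0.00591) and -0.25. The calls of Gpd1, Slc25a13 and Klf15 were lost without BBDR.+/+ replicate 2 (-1.003, -0.81 and -0.77). Hnf4a, a transcription factor that maintains hepatocyte identity, gave -1.08 against pre-hyperglycemia on its dimmest probe set (0.00505, held without any 1 array), -0.59 on a second dimmer probe set (0.0305, lost without either post-hyperglycemia array or pre-hyperglycemia replicate 2, -0.61 to -0.49) and 0.23 on the brightest. The lysosomal glucosidase Gaa gave -0.66 (0.0213, lost without post-hyperglycemia replicate 1, -0.55, or pre-hyperglycemia replicate 2, -0.58) and -0.01 there, and Crem, a CREB relative, gave -0.43 against BBDR.+/+ (0.0346, lost without any 1 of the 4 arrays compared, -0.47 to -0.40) on 1 of its 6 probe sets. The dimmer probe sets of Gpd1 (-0.80, adjusted p = 0.0497 from limma) and Slc25a13 (-0.90, 0.0113) were also called against pre-hyperglycemia. The dimmest of Hnf4a was also called against BBDR.+/+ (-0.64, adjusted p = 0.0278 from limma). With 1 array left out these differences were -1.005 to -0.59, -1.06 to -0.74 and -0.81 to -0.47, and each call was lost without some arrays.

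**Figure D4:**
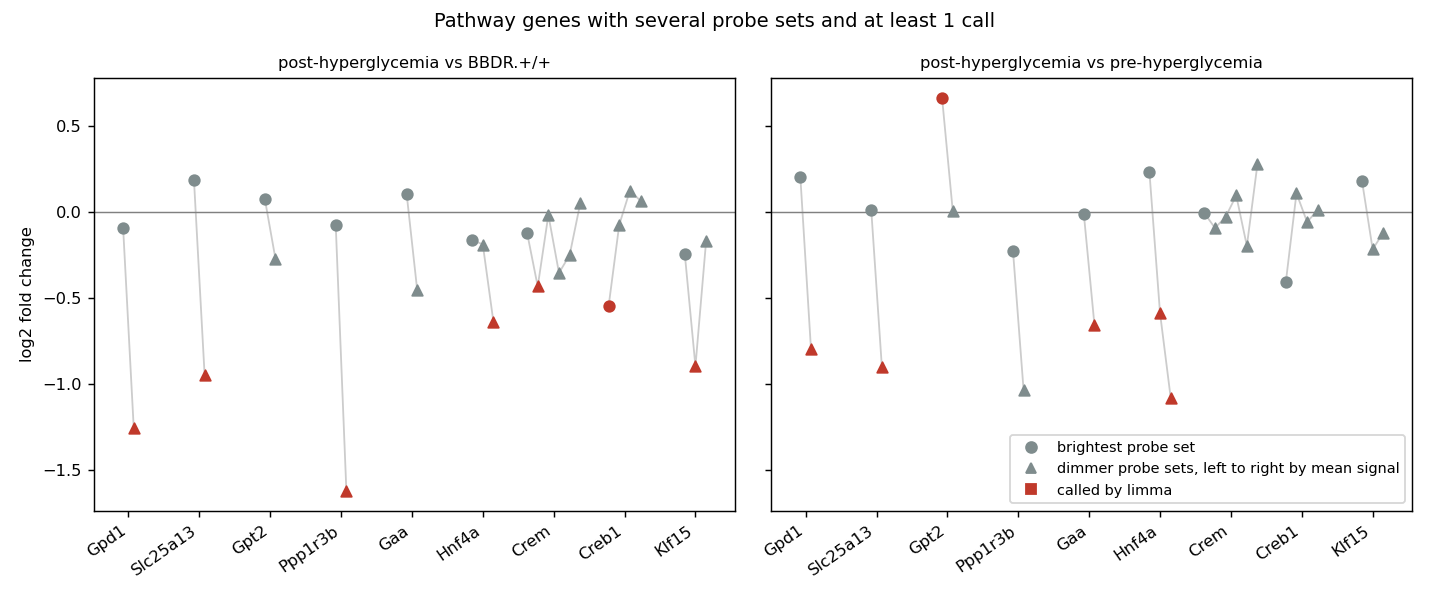
Log2 fold change (vertical axis) of every probe set of the 9 listed genes with several probe sets and a call in any comparison, in post-hyperglycemia livers against BBDR.+/+ (left) and against pre-hyperglycemia (right). Circles are the brightest probe set, triangles the dimmer ones ordered by mean signal, red an adjusted p under 0.05 by limma; for Ppp1r3b against BBDR.+/+ they lie at -0.08 and -1.62.

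RNA integrity controls moved with the post-hyperglycemia group. The signal of the 3' control probe set minus that of the 5' one, which grows as the 5' end is lost, was 2.07 ± 0.05 for beta-actin in post-hyperglycemia livers, 1.42 ± 0.14 in pre-hyperglycemia livers and 1.24 ± 0.17 in BBDR.+/+ livers (log2, SD, n = 2). For GAPDH it was 1.35 ± 0.03 in post-hyperglycemia livers, 0.61 ± 0.09 in pre-hyperglycemia livers and 0.58 ± 0.20 in BBDR.+/+ livers. With this difference as a covariate none of the 13 probe sets was called, but the difference from BBDR.+/+ moved to 0.80 for Slc37a4, 0.52 for Pc, 0.88 for Crtc2 and -0.60 for Ppargc1a 1370089_at. The covariate was higher on both post-hyperglycemia arrays than on any other array, so this fit cannot separate it from the group. In it, no probe set of the whole array was called in either comparison with post-hyperglycemia livers. A missing call there therefore says nothing about a single gene. The dimmer probe sets of Ppp1r3b, Gpd1 and Slc25a13 differed from BBDR.+/+ by 1.13, 0.49 and 0.17 in that fit. Pfkfb1, Gpt2 and Nr0b2 differed from pre-hyperglycemia by 0.44, 0.78 and -0.11. The part of RNA integrity in these results was not tested.

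The summed signal of hepatocyte markers, by their brightest probe sets, was level across the groups. These probe sets had means of 13.33 to 14.62, at the top of the signal range. How well signals this bright show a difference was not tested. Apoa1 was higher by 0.35 in pre-hyperglycemia livers against BBDR.+/+ without being called. Of 8 listed markers 7 were on the array, 0 were called by limma in any comparison by their brightest probe sets (0, 0 and 1 at an unadjusted p under 0.05), and their summed signal (log2 of the sum) was 16.71 to 16.73 in post-hyperglycemia livers, 16.72 to 16.74 in pre-hyperglycemia livers and 16.70 to 16.71 in BBDR.+/+ livers. A dimmer probe set of Cps1, a urea cycle enzyme, was called lower in post-hyperglycemia livers against BBDR.+/+ (-0.85, adjusted p = 0.0032 from limma, lost without BBDR.+/+ replicate 2, -0.79). Markers of Kupffer cells, the resident macrophages, were 5 of 7 on the array and summed to 12.45 to 12.60 in post-hyperglycemia livers, 12.39 to 12.40 in pre-hyperglycemia livers and 12.12 to 12.16 in BBDR.+/+ livers, with 2 of 5 called higher in post-hyperglycemia livers against BBDR.+/+ (Cd163, 0.73, lost without BBDR.+/+ replicate 2, 0.61, and Clec4f, 0.42, lost without any 1 of the 6 arrays, 0.34 to 0.49). Of 6 neutrophil and monocyte markers 3 were higher in that comparison (S100a9, 1.46, S100a8, 1.29, and Ly6c, 0.43, the last lost without any 1 of the 6 arrays, 0.37 to 0.50), Cd14 had a difference of -0.53 that was not called, and the summed signal was 9.34 to 9.46 in post-hyperglycemia livers against 9.32 to 9.52 in BBDR.+/+ livers. Cd14 fell by 0.99 in post-hyperglycemia livers against pre-hyperglycemia (lost without post-hyperglycemia replicate 1, -0.88, or pre-hyperglycemia replicate 2, -0.84), and 2 of the 6, S100a9 and S100a8, were higher in pre-hyperglycemia livers against BBDR.+/+ (1.66 and 1.21, the second lost without either BBDR.+/+ array, 1.19 and 1.23).

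Markers of other cells also differed between the groups. Against BBDR.+/+, the median log2 fold change of pre-hyperglycemia was 0.48 for 3 erythroid markers (Alas2 called, 0.56), 0.33 for 5 endothelial markers (0 called by limma, 4 at an unadjusted p under 0.05) and 0.17 for 6 stellate cell markers (Col1a1 called, 0.60). The calls of Alas2 and Col1a1 were lost without any 1 of the 4 arrays compared (0.54 to 0.58 and 0.59 to 0.62). The endothelial difference was shared by post-hyperglycemia livers, with a median of 0.20 against BBDR.+/+ and -0.04 against pre-hyperglycemia. Pecam1 was called there against BBDR.+/+ (0.49, lost without any 1 of the 4 arrays compared, 0.47 to 0.51). In post-hyperglycemia livers against pre-hyperglycemia the erythroid median was -0.39, with 0 of 3 called and 3 at an unadjusted p under 0.05. Col1a1 was called lower in that comparison by its brightest probe set (-0.51, lost without any 1 of the 6 arrays, -0.58 to -0.45). A dimmer Col1a1 probe set was not called in it. That probe set was called higher against BBDR.+/+ in pre-hyperglycemia livers (0.54) and in post-hyperglycemia livers (0.41). Both calls were lost without any 1 of the 6 arrays (0.48 to 0.60 and 0.36 to 0.46). A dimmer probe set of Reln, also in the stellate list, was lower in post-hyperglycemia livers against pre-hyperglycemia (-0.70, lost without pre-hyperglycemia replicate 2, -0.64). Against BBDR.+/+ it gave -0.74, held without any 1 array. A dimmer T cell probe set, Cd8a, gave -0.43 against BBDR.+/+ (lost without any 1 of the 6 arrays, -0.49 to -0.34). In whole liver, fewer cells of a type and less RNA per cell cannot be told apart, and the part of other cells in the values of the 10 genes, Pfkfb1, Gpt2 and Nr0b2 was not tested.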

How the data were processed

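Liver RNA of 3 groups of rats, 2 arrays each, was hybridised to a rat expression array from Affymetrix. Quantification in Affymetrix Expression Console and normalization in a Partek program were done by the authors, and the deposited values are on the log2 scale, 1 per probe set and array. Neither a version nor the normalization algorithm is given in the sources. Of 31099 features, 57 controls were set aside, and no filter on signal was applied to the remaining 31042. Symbols came from the annotation of the array (20826 probe sets with 1 symbol, 436 with several, 9780 with none), and the Entrez identifiers of all 10 members were found in the RefSeq gene table.

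limma (version 3.58.1, R 4.3.3) was fitted to all 6 arrays with 1 mean per group (3 residual and 7.70 prior degrees of freedom), with a Benjamini-Hochberg adjusted p under 0.05 over all probe sets. Fold changes are log2 differences, the group named first minus the second, with 95% intervals of the moderated test. The rank product of the methods used the 4 pairwise ratios of a comparison, 100 permutations and a false discovery rate of 20%. Its null permuted probe sets within arrays. Scripts were tested on simulated data. Python 3.11.15 and matplotlib 3.10.9 were used for sequences and plots.

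The members and the gene lists were chosen with earlier results of these data known. Every member probe set is named, and of each pathway list the genes called in any comparison, filled to 4 with the smallest p. Genes of the marker lists were not chosen by this rule. Beside the lists given here, markers of T cells, endothelial cells, stellate cells, cholangiocytes, erythroid cells, adipocytes, skeletal muscle and pancreatic acinar cells were summarised, with medians against BBDR.+/+ in post-hyperglycemia livers of -0.17, 0.20, 0.12, 0.13, -0.07, 0.02, -0.04 and 0.10 on the log2 scale. In the same order the medians of post-hyperglycemia against pre-hyperglycemia were -0.08, -0.04, -0.17, -0.17, -0.39, 0.10, -0.04 and -0.15, and those of pre-hyperglycemia against BBDR.+/+ were -0.06, 0.33, 0.17, 0.25, 0.48, 0.01, 0.01 and 0.24.

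Alternatives were median, quantile and ribosomal protein centring, 2 filters on mean signal, the methods' t-test, the arrays of a comparison alone, an intensity trend, array weights, a replicate block, a 3' to 5' covariate and leaving out each array. The number of arrays limits the precision.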

Additional observations from a re-analysis of the deposited data

How the results depend on the processing

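Across 19 alternative settings the 13 probe sets gave 726 values in the 3 comparisons, of which 724 kept their side of the threshold and 0 called values reversed. The exceptions were Fbp1 in post-hyperglycemia livers against BBDR.+/+ and Gbe1 in pre-hyperglycemia livers against BBDR.+/+, each of which passed the methods' t-test before adjustment (1 member probe set in each comparison), with differences of -0.14 and -0.13. Values that passed no test changed sign 24 times, 17 of these outside the covariate fit, where none differed by more than 0.115 in the reported fit. Ribosomal protein centring moved the median of all probe sets by -0.01, 0.02 and -0.02 in the 3 comparisons.

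Over all probe sets, limma called 1599 in post-hyperglycemia livers against BBDR.+/+, 677 in post-hyperglycemia livers against pre-hyperglycemia and 223 in pre-hyperglycemia livers against BBDR.+/+. These counts moved by more than 1.5 times under several settings, while 0 member probe sets were called in each of them other than the methods' t-test. In the same order of comparisons, the methods' t-test passed 3362, 2790 and 2784 before adjustment and 0, 0 and 1 after it, and the 3' to 5' covariate left 0, 0 and 115. Rank product called 746 in the first and 399 in the third. In the second, the arrays of the comparison alone gave 413 and an intensity trend 1225. In the third, the trend gave 496 and the brightest 30% of probe sets 403. Leaving out 1 array gave 291 to 1567, 112 to 537 and 12 to 212, with the lowest counts without BBDR.+/+ replicate 2, pre-hyperglycemia replicate 2 and BBDR.+/+ replicate 2. The counts of both comparisons with BBDR.+/+ moved by over 1.5 times without any 1 of the 4 arrays compared, and that against pre-hyperglycemia without post-hyperglycemia replicate 1 (207), pre-hyperglycemia replicate 2 or either BBDR.+/+ array (413). The causes of these shifts were not tested.

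The replicate numbers do not pair the samples by any label. Deviations of same-numbered arrays correlated at 0.142, 0.110 and 0.261 over probe sets for the 3 pairs of groups, from 2 numbers only. With the replicate number as a block, 2273, 1191 and 408 probe sets were called and 0 of the 13. With 2 arrays a group, the 95% intervals of the 13 probe sets reached between 0.219 and 0.325 either side of the difference on the log2 scale, and a call after adjustment over all probe sets needs a larger difference still.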
